A study of Arabidopsis thaliana with 2 samples.

Results

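The nuclei described here carried transcripts of both class B floral genes, AP3 (APETALA3, AT3G54340) and PI (PISTILLATA, AT5G20240), and no counted transcript of the class C gene AG (AGAMOUS, AT4G18960). A barcode was taken as a nucleus when at least 1000 nuclear genes had a unique molecular identifier (UMI, 1 counted RNA molecule), and a double-positive nucleus had at least 1 UMI of AP3, at least 1 of PI and 0 of AG. Of 8942 nuclei, 583 were chosen by these measured values, 375 of 4397 at day 3 and 208 of 4545 at day 4. Each was set against 3 nuclei of its own library with the nearest UMI total and no UMI of AP3, PI or AG, which gave 1125 and 624 comparison nuclei. The levels of AP3, PI and AG themselves are therefore a description and not a result. A count of 0 does not show that a gene was silent. AG was found in 6.41% of day 3 nuclei as deposited and in 3.21% with every nucleus thinned at random to 1000 UMIs. Nuclei that express AG can thus lie among the double-positive nuclei, and nuclei that express AP3 or PI among the comparison nuclei.

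In the ABC model of flower development, AP3 and PI are MADS-domain proteins that act as a heterodimer, each needing the other to enter the nucleus and bind DNA. With class A activity and the class E proteins SEP1, SEP2 and SEP3 they specify petals, and with AG and the SEP proteins they specify stamens. LFY and the F-box protein UFO are known activators of AP3 in the whorls of petals and stamens.

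The study profiled inflorescences of Arabidopsis thaliana by single-nuclei RNA-seq, with 1 library for day 3 (stage 4 of flower development) and 1 for day 4 (stage 5). Both groups were of the Ler ecotype, mutant for ap1-1 and cal-1, and carried the transgene pAP1:AP1-GR. The AP1 promoter drives in them AP1 fused to the glucocorticoid receptor, and daily dexamethasone (DEX) at 2 µM starts flowers in synchrony. Each library pooled nuclei from many inflorescences sorted on DAPI, the day 3 record names the fourth day in its protocol text against its title, and the amplification cycles differed, so day and library cannot be told apart. UMIs of the AP1 transgene and of the resident gene were not separated. The plants carry the same transgene and mutations at both days, so no comparison here is with a wild-type flower.

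The 2 genes that define these nuclei are shown by the 250 bases before their annotated starts, since both rule and results turn on them. They were read from the TAIR10.1 reference genome and RefSeq annotation of the Columbia accession, not from the Ler plants. The AP3 window is chr3:20121315-20121564 (minus strand) and the PI window is chr5:6828654-6828903 (plus strand), both 5′ to 3′.
AP3: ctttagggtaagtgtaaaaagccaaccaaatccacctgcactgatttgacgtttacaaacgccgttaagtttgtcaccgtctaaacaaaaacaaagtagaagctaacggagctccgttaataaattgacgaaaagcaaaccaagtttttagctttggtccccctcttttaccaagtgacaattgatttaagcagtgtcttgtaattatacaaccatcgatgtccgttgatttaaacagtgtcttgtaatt
PI: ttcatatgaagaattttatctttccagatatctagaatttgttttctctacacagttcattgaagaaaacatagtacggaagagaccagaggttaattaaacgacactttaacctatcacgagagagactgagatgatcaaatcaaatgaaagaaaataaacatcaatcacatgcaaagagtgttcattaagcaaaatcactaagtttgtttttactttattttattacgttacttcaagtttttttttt
Neither window held an exact CArG box, the site of MADS-domain proteins, searched as CC, 6 bases of A or T and GG, a pattern that reads alike on both strands. Neither held CCANTG, the core of LFY sites, on either strand. Of 27443 protein-coding genes, 2.52% had a CArG box and 20.8% had CCANTG in the window of the same length. No letter is in capitals because neither window held a match.

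Double-positive nuclei made up 8.53% of nuclei at day 3 (95% exact binomial interval 7.72 to 9.39) and 4.58% at day 4 (3.99 to 5.22). All intervals given here cover counting error only, since each day had 1 library and no replicate. No test between days was possible, and the sets of nuclei were not tested over the 2 libraries. Of the nuclei with AP3 and without AG, 39.8% (36.7 to 43.0) also had PI at day 3, against 14.9% (12.7 to 17.3) of AP3-free nuclei of like depth. At day 4 the shares were 29.0% (25.7 to 32.4) and 11.0% (8.81 to 13.5). Both shares describe the genes of the rule and carry no test.

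The rule was met by few molecules. In 99 double-positive nuclei at day 3 (26.4%) and 57 at day 4 (27.4%) it was met by exactly 1 UMI of AP3 and 1 of PI. The median sum of both genes was 4 UMIs (highest 29) at day 3 and 3 UMIs (highest 11) at day 4. Just outside the rule were 567 and 510 nuclei with AP3 alone, 354 and 325 with PI alone, and 109 and 40 with all of AP3, PI and AG, of which 80 and 28 had a single AG UMI. AP3 stood at 629 CPM (a gene's UMIs scaled to a common total of nuclear UMIs, 588 to 672) in the double-positive nuclei at day 3 and 598 CPM (540 to 660) at day 4. PI stood at 562 CPM (524 to 603) and 568 CPM (512 to 628). These levels follow from the selection.

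**Figure D1:**
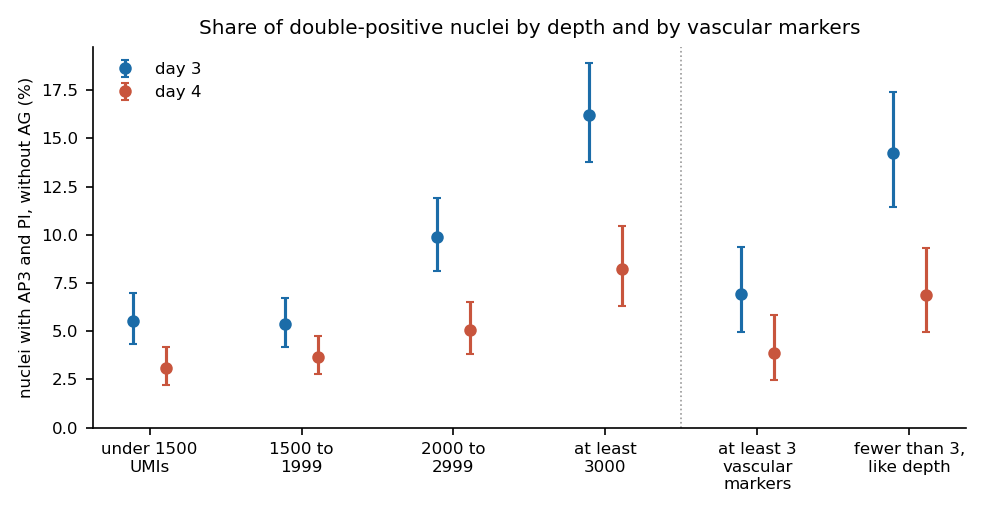
Percent of nuclei with AP3 and PI and without AG (vertical axis) at day 3 (blue) and day 4 (red), in 4 bins of UMI total and, right of the dotted line, in nuclei with UMIs of at least 3 vascular markers and in as many nuclei of like depth with fewer. Points are shares and bars exact binomial 95% intervals; the share was 5.53% under 1500 UMIs and 16.2% at 3000 or more at day 3.

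The share was higher in deeper nuclei. At day 3 it was 5.53% (4.31 to 6.97) below 1500 UMIs and 16.2% (13.8 to 18.9) at 3000 UMIs or more, and at day 4 it was 3.08% (2.19 to 4.20) and 8.21% (6.32 to 10.4). With every nucleus thinned at random to 1000 UMIs, 3.12% (2.62 to 3.67) of nuclei met the rule at day 3 and 1.78% (1.42 to 2.21) at day 4, and the share expected over all such draws was 3.60% and 1.87%. The double-positive nuclei had a median of 2439 UMIs at day 3 and 2218 at day 4, against 1842 and 1805 in all nuclei. Medians of the comparison nuclei were 2439 and 2217.5. The deep end was not fully matched at either day. At day 3, 28.5% (24.0 to 33.4) of double-positive nuclei lay above 2 times the library median, against 17.5% (15.3 to 19.9) of comparison nuclei, and the deepest of each set held 27955 and 25702 UMIs. At day 4 both shares were 23.1%, but 5 double-positive nuclei were deeper than any comparison nucleus, up to 32677 against 11483 UMIs, and held 13.2% of the UMIs of their set. Doublets were not removed, and their part in the double-positive nuclei was not tested. The libraries shared 6 barcodes among their nuclei, of which 1 was double-positive at day 3 and 0 at day 4.

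The rule was also read in nuclei with vascular markers, which are not shown to be free of AP3 and PI. Their shares are thus no background rate. As deposited, AP3 was found in 24.6% of them and 24.8% of all nuclei at day 3. At day 4 these shares were 15.4% and 17.2%. Medians were 2800 and 2557.5 UMIs in the vascular-marker nuclei, against 1842 and 1805 in all nuclei. At 1000 UMIs per nucleus the markers were counted again, which left 215 and 249 vascular-marker nuclei, down from 562 and 566. In these, AP3 was found in 5.58% at day 3 and 4.02% at day 4, against 13.6% and 9.99% of all nuclei. Both depth and the set of nuclei thus differ from the shares as deposited. In nuclei with UMIs of at least 3 of 12 vascular markers, 6.94% (4.98 to 9.36) were double-positive at day 3 and 3.89% (2.45 to 5.83) at day 4, at medians of 2800 and 2557.5 UMIs. In nuclei of like depth with fewer vascular markers, the shares were 14.2% (11.5 to 17.4) and 6.89% (4.95 to 9.30). At day 3 these intervals did not overlap, and at day 4 they did. At 1000 UMIs per nucleus, 1 of 215 vascular-marker nuclei met the rule at day 3 (0.465%, 0.0118 to 2.56) and 2 of 249 at day 4 (0.803%, 0.0974 to 2.87). Free RNA was measurable at day 3, in barcodes with 1 to 99 UMIs, and held AP3 at 233 CPM (206 to 263), PI at 146 CPM (125 to 170) and AG at 31.8 CPM (22.4 to 43.9). The day 4 matrix had 0 such barcodes. The part of free RNA in the double-positive nuclei was not tested.

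Outside the 3 genes of the rule, 11678 genes had at least 50 UMIs over both sets of nuclei in each library. In the double-positive nuclei, 60 of them (0.514%) were at least 1.5-fold higher at both days, and 311 (2.66%) at least 1.5-fold lower. These calls use ratios of CPM plus 10, so they understate changes of low genes. The folds printed for single genes below are plain ratios of CPM and can exceed the ratio used for the call. The median log2 ratio over all 11678 genes was -0.03 at day 3 and 0.01 at day 4. For all 60 higher genes and 303 of the 311 lower genes, the counting interval of the fold excluded 1 at both days. The genes were chosen by these same counts, so this follows largely from the selection and is no separate support. The intervals also take UMIs as independent, though single nuclei held many UMIs of some genes. By day, 198 and 337 genes passed the fold upward and 615 and 694 downward, so that 60 of the 198 and 337 upward and 311 of the 615 and 694 downward were shared.

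**Figure D2:**
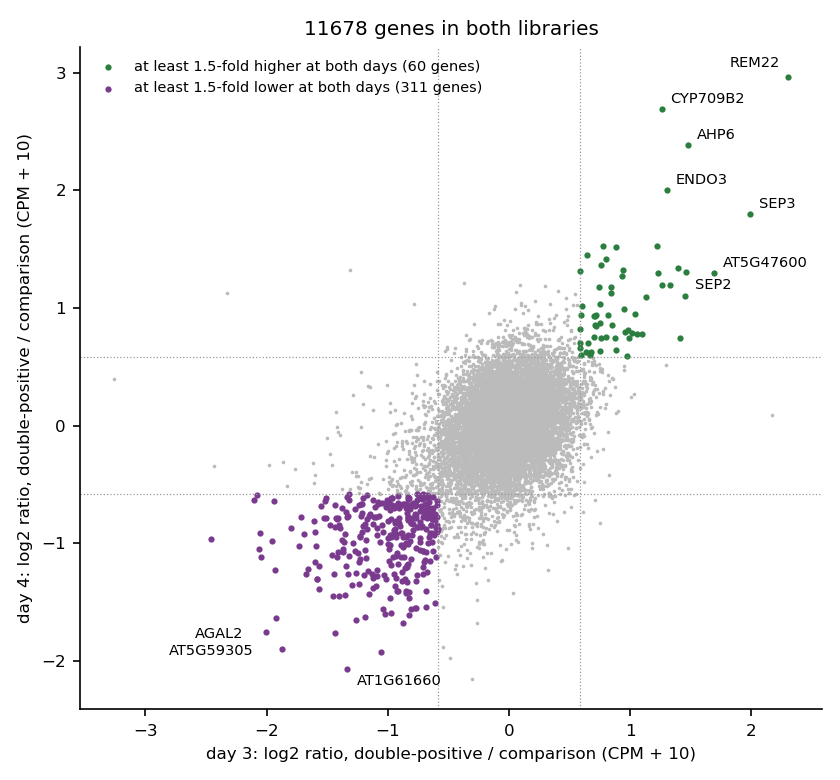
Log2 ratio of CPM plus 10 in double-positive against comparison nuclei at day 3 (horizontal) and day 4 (vertical) for 11678 genes, 1 point each; green points are the 60 genes higher and purple points the 311 genes lower at both days, and dotted lines mark 1.5-fold. REM22 lies at 2.31 on the day 3 axis and 2.96 on the day 4 axis, SEP3 at 1.99 and 1.80, and AHP6 at 1.48 and 2.39.

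REM22 (AT3G17010), a gene of the B3-domain REM family, had the highest ratio by the library nearer 0. It stood at 106 CPM (89.6 to 125) in double-positive nuclei and 13.5 CPM (9.75 to 18.2) in comparison nuclei at day 3, and at 136 CPM (110 to 167) and 8.73 CPM (4.89 to 14.4) at day 4. The folds were 7.87 (5.57 to 11.3) and 15.6 (8.97 to 29.0). Its UMIs were spread over 84 of 375 double-positive nuclei at day 3 and 49 of 208 at day 4, with at most 8 in a single nucleus. In the free RNA of day 3 it stood at 49.0 CPM (37.1 to 63.5), above the comparison nuclei and below the double-positive nuclei.

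Of the 4 SEP genes, whose products bridge class B proteins to their MADS partners, SEP1, SEP2 and SEP3 were past the fold upward and SEP4 was not. SEP3 (AT1G24260) stood at 147 CPM (127 to 168) against 29.5 CPM (23.8 to 36.1) at day 3 and at 167 CPM (137 to 201) against 40.8 CPM (31.8 to 51.5) at day 4, folds of 4.99 (3.89 to 6.43) and 4.09 (3.00 to 5.596). With all nuclei at 1000 UMIs, SEP3 was found in 15.5% of double-positive and 3.56% of comparison nuclei at day 3 and in 13.0% and 3.69% at day 4. Its free RNA level at day 3 was 94.6 CPM (77.8 to 114). SEP2 (AT3G02310) was 3.04-fold (2.52 to 3.66) and 2.69-fold (2.07 to 3.49) higher. SEP1 (AT5G15800) was 1.78-fold (1.46 to 2.17) and 2.17-fold (1.69 to 2.78) higher. SEP1 and SEP2 are close paralogs, and reads could be split between them. SEP4 stood below the comparison without passing the fold, at 46.6 against 64.9 CPM at day 3 and 53.0 against 69.9 CPM at day 4.

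AP1, the class A partner, was near the same level in both sets. It stood at 447 CPM (413 to 484) in double-positive and 377 CPM (356 to 399) in comparison nuclei at day 3, and at 444 CPM (394 to 497) and 389 CPM (361 to 420) at day 4. AGL24, a MADS gene of the inflorescence meristem, was lower, with folds of 0.55 (0.38 to 0.76) and 0.54 (0.33 to 0.83). SOC1, FUL and SVP were below the comparison at both days without passing the fold. Of the 15 genes on the list of MADS partners and class A, C and E genes, 12 passed the filter, 3 were higher and 1 was lower at both days. The median of the 12 was -0.19 at day 3 and -0.14 at day 4. SHP2 and STK, genes of the ovule and carpel, had 0 UMIs in both sets, and SHP1 had 1 UMI in double-positive nuclei at each day.

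Among 9 activators and co-regulators of the class B genes, 7 passed the filter and 1 was higher at both days, none lower. The medians were 0.25 and 0.37. The gene past the fold was PAN, a bZIP factor that acts on AG, at 114 against 46.7 CPM at day 3 and 90.8 against 37.3 CPM at day 4, a fold of 2.44 at each. LFY was 1.75-fold (1.45 to 2.12) higher at day 3 and 1.25-fold (0.86 to 1.78) at day 4. ASK1, the SKP1-like partner of UFO, stood at 279 against 174 CPM and 182 against 121 CPM, folds of 1.61 (1.41 to 1.84) and 1.50 (1.19 to 1.89). It was not called, since its ratio of CPM plus 10 fell short of the fold at day 4. UFO was below the filter, with 41 UMIs in double-positive and 25 in comparison nuclei at day 3 and 17 and 20 at day 4, folds of 3.75 (2.23 to 6.43) and 2.21 (1.09 to 4.44). SUP, the zinc-finger gene at the border of stamens and carpels, had 12 UMIs against 1 and 10 against 2, so its folds of 27.4 (4.06 to 1173) and 13.0 (2.77 to 122) rest on few molecules.

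Of 20 regulators of petals and stamens and known targets of the class B proteins, 7 passed the filter, 2 were higher at both days and none was lower, with medians of 0.47 and 0.25. ATH1, a TALE homeodomain gene, stood at 91.0 CPM (75.9 to 108) against 33.2 CPM (27.2 to 40.2) at day 3 and at 103 CPM (79.9 to 130) against 29.1 CPM (21.6 to 38.4) at day 4. ROXY1, a glutaredoxin gene needed for petals, was 1.63-fold (1.24 to 2.14) and 1.91-fold (1.05 to 3.42) higher. ANT, a growth regulator of floral organs, was 1.39-fold (1.25 to 1.55) and 1.42-fold (1.23 to 1.63) higher, short of the fold used here. SPL8 was at 0.81 (0.70 to 0.94) and 0.73 (0.59 to 0.91) of the comparison. The other 13 listed genes were below the filter, and their values went both ways. RBE, a zinc-finger gene of petal primordia, had 17 UMIs against 3 at day 3 and 4 against 0 at day 4. NUB, a zinc-finger gene of lateral organs, had 43 against 40 UMIs at day 3 and 19 against 13 at day 4, and with the larger UMI total of the comparison nuclei its folds were 2.46 (1.56 to 3.88) and 3.80 (1.78 to 8.37). PTL, a trihelix gene between sepals, was 1.60-fold (1.08 to 2.36) and 2.71-fold (1.47 to 5.03) higher. NAP was at 0.59 (0.22 to 1.39) and 0.73 (0.27 to 1.73), TCP5 at 0.33 (0.0072 to 2.54) and 0.71 (0.13 to 2.68), and GNC at 0.89 (0.31 to 2.23) and 0.60 (0.11 to 2.18). BNQ1 was at 0.65 (0.35 to 1.12) at day 3 and 1.16 (0.53 to 2.36) at day 4, and BNQ3 and ROXY2 had 0 UMIs in both sets.

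Boundary and meristem genes split. CUC3, a NAC gene of organ boundaries, was 2.46-fold (1.67 to 3.63) and 3.47-fold (2.05 to 5.94) higher, and its relative CUC1, below the filter, 2.90-fold (1.89 to 4.48) and 2.60-fold (1.37 to 4.92). KNAT1, a KNOX homeobox gene of meristem and stem, stood at 131 against 239 CPM at day 3 and 141 against 288 CPM at day 4, folds of 0.55 (0.46 to 0.65) and 0.49 (0.39 to 0.61). STM was at 0.83 (0.70 to 0.97) and 0.75 (0.57 to 0.98) of the comparison. Of 9 listed genes that passed, CUC3 was the 1 past the fold upward and KNAT1 the 1 past it downward, and the list medians were 0.03 and -0.20. CLV3, the stem cell marker, had 0 UMIs in double-positive nuclei at both days against 11 and 2 in comparison nuclei, and WUS had 3 and 0 against 14 and 10. These counts are few, and the comparison nuclei held the larger UMI total, so they do not show an absence. A single comparison nucleus held 7 of the 11 CLV3 UMIs at day 3, and another held the 2 at day 4. The 3 WUS UMIs of double-positive nuclei also lay in a single nucleus.

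Among polarity genes, PHB, an HD-ZIP III gene of the upper organ side, was higher, at 212 against 122 CPM and 244 against 129 CPM, and it was the 1 of 11 past the fold at both days, beside list medians of -0.17 and 0.01. Among 6 auxin and cytokinin genes that passed, with medians of -0.08 and 0.02, AHP6, an inhibitor of cytokinin signaling, was higher, at 101 CPM (85.0 to 119) against 29.8 CPM (24.1 to 36.4) at day 3 and 75.7 CPM (56.2 to 99.8) against 6.40 CPM (3.20 to 11.5) at day 4. Its UMIs were unevenly spread, with 16 of 141 in a single double-positive nucleus at day 3. YUC1, an auxin synthesis gene below the filter, was 4.57-fold (1.95 to 11.6) and 4.02-fold (1.78 to 9.49) higher. PIN3, an auxin efflux carrier gene also below it, had 3 UMIs against 51 and 4 against 34.

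The other 7 of the 12 genes with the highest ratios were on no list. CYP78A5, the cytochrome P450 gene KLUH that promotes organ growth, stood at 348 CPM (318 to 381) against 139 CPM (126 to 152) at day 3 and at 150 CPM (122 to 182) against 59.96 CPM (48.9 to 72.7) at day 4. Its level thus fell between the libraries in both sets while the fold was 2.51 and 2.50. AGF2, an AT-hook gene, was 2.69-fold and 2.48-fold higher, and ENDO3, an endonuclease gene, 3.08-fold and 6.00-fold. CYP709B2, another P450 gene, was 3.01-fold (2.19 to 4.13) and 14.3-fold (7.66 to 29.1) higher, but at day 3 a single comparison nucleus held 40 of its 73 comparison UMIs, without which that level was 10.4 CPM (7.13 to 14.5). AT3G04960, AT5G47600 and AT5G49700 were 3.17-fold, 4.03-fold and 3.22-fold higher at day 3 and 3.14-fold, 3.29-fold and 3.27-fold at day 4.

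Vascular genes were lower throughout the list. All 10 of the 12 vascular genes that passed the filter had ratios below 0 at both days, 7 were past the fold downward and 0 upward, and the medians were -1.25 and -0.73. Of all 11678 genes that passed, 3700 had ratios below 0 at both days, and 311 (2.66%) were past the fold downward. Summed over the list, double-positive nuclei held 520 CPM (483 to 559) against 1220 CPM (1182 to 1259) at day 3 and 587 CPM (530 to 649) against 1209 CPM (1158 to 1262) at day 4. WAT1, which encodes a vacuolar auxin transporter, stood at 179 against 455 CPM and 186 against 494 CPM. PXY, a receptor kinase gene of the cambium, was at 0.50 (0.38 to 0.65) and 0.46 (0.32 to 0.64) of the comparison. ACL5, needed for xylem, was at 0.19 (0.13 to 0.28) and 0.57 (0.33 to 0.94), and its call was lost with each nucleus weighted equally. CESA4 and XCP1, of mature xylem, were under the filter. The rule did not use vascular markers, so nuclei with them can lie in both sets. At 1000 UMIs, at least 2 vascular list genes were found in 6.13% of double-positive and 15.8% of comparison nuclei at day 3. At day 4 these shares were 7.69% and 15.5%. The part of vascular nuclei in the 311 lower genes was not tested.

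Of the 12 genes with the lowest ratios, only WAT1 was on a list. AT5G59305 stood at 7.16 CPM (3.44 to 13.2) against 53.0 CPM (45.3 to 61.6) at day 3 and 9.08 CPM (3.33 to 19.8) against 61.1 CPM (50.0 to 74.0) at day 4. AGAL2, an alpha-galactosidase gene, was at 25.1 against 131 CPM and 21.2 against 95.5 CPM, though 18 of its 35 double-positive UMIs at day 3 came from a single nucleus, without which the level was 12.2 CPM (7.12 to 19.6). TSA1 was at 56.6 against 172 CPM and 60.5 against 183 CPM. The rest, AT5G42530, AT5G50090, AT1G25530, AT2G32150, AT2G38640, AT1G61660, AT1G52700 and AT1G47410, had log2 ratios between -1.92 and -1.34 at day 3 and between -2.07 and -1.31 at day 4.

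**Figure D3:**
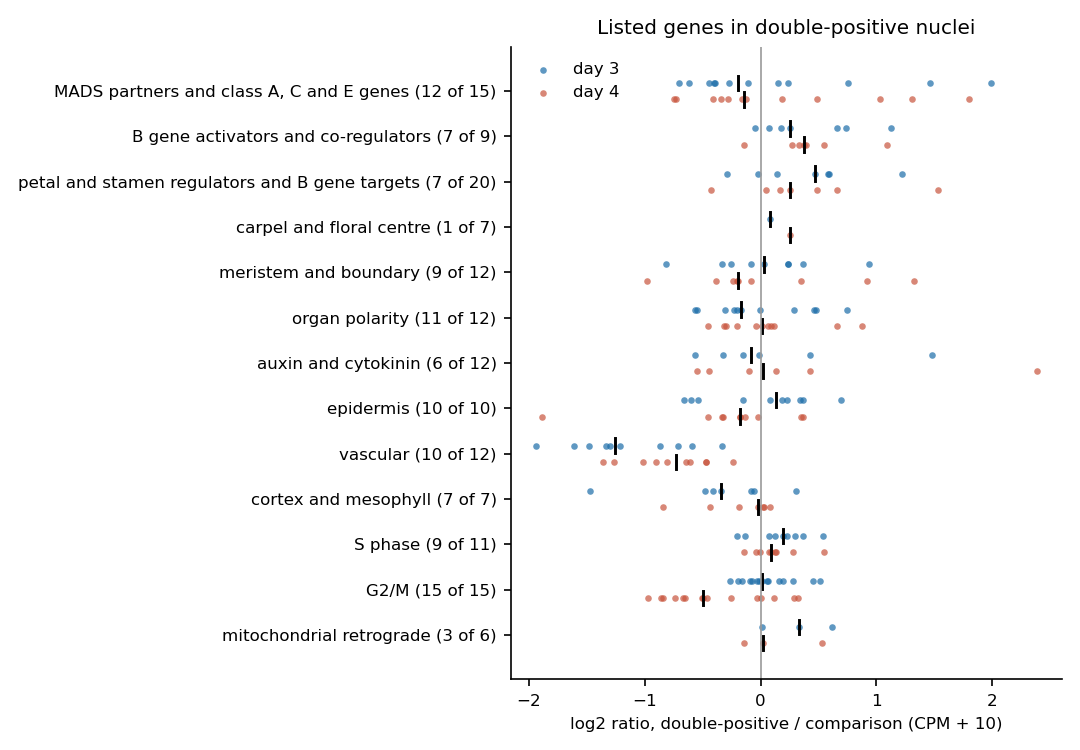
Log2 ratio of CPM plus 10 in double-positive against comparison nuclei for every listed gene that passed the filter (points; day 3 blue, day 4 red), with the list median as a black bar and the number that passed of the number listed. All 10 vascular genes lie below 0 at both days, and the G2/M median is 0.01 at day 3 and -0.50 at day 4.

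Genes of the epidermis, S phase and G2 or mitosis did not pass the fold at both days. None of 10 epidermal genes was past the fold in the same direction at both days, with medians of 0.14 and -0.18. Their summed level was 4280 CPM (4172 to 4390) against 3439 CPM (3375 to 3504) at day 3 and 3618 CPM (3474 to 3766) against 3718 CPM (3627 to 3810) at day 4. PDF1, a gene of the outermost cell layer, was at 1.62-fold (1.55 to 1.70) and 1.29-fold (1.20 to 1.395) and carried the day 3 difference. Without it the other 9 genes summed to 2036 CPM (1962 to 2113) against 2056 CPM (2006 to 2106) at day 3 and 2113 CPM (2004 to 2227) against 2553 CPM (2478 to 2630) at day 4. Of the 10 genes, 2 had ratios above 0 and 4 below 0 at both days, beside 3356 and 3700 of all 11678 genes. CER1, a gene of wax synthesis, was at 0.62 (0.54 to 0.71) and 0.72 (0.63 to 0.84), and CER4, also of wax synthesis, at 0.64 (0.47 to 0.86) and 0.21 (0.12 to 0.34). Of 7 cortex and mesophyll genes, CHAL was lower at both days and none was higher, with medians of -0.34 and -0.02. Of S phase genes 0 of 9 were past the fold at both days, with medians of 0.19 and 0.09.

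Genes of G2 and mitosis differed by library. At day 3 the 15 genes had a median of 0.01 and a summed level of 4430 CPM (4320 to 4542) against 4518 CPM (4445 to 4593). At day 4 the median was -0.50 and the summed level 2847 CPM (2720 to 2979) against 4274 CPM (4176 to 4372). Much of this sum came from CDC20.1 and CDC20.2. Leaving out the nucleus with most UMIs of each, they stood at 962 and 686 CPM in double-positive nuclei at day 4. In comparison nuclei they stood at 1432 and 1363 CPM. The sum without these genes was not computed. KN, the syntaxin gene of cytokinesis, was at 1.15 (1.02 to 1.30) of the comparison at day 3 and 0.54 (0.44 to 0.67) at day 4. CYCB1;3 went from 1.44 (1.11 to 1.88) to 0.52 (0.29 to 0.88), and CYCB1;4 from 1.05 (0.80 to 1.37) to 0.45 (0.27 to 0.70). CDC20.1 and CDC20.2, neighboring close copies whose reads could be exchanged, were at 1.05 and 0.83 at day 3 and at 0.70 and 0.55 at day 4. Not every gene followed: CDKB1;1 was at 1.29 and 1.34, and CDKB2;1 at 0.95 and 1.28. Counted per nucleus at 1000 UMIs, at least 2 of these genes were found in 44.5% of double-positive and 33.5% of comparison nuclei at day 3 and in 27.4% and 28.4% at day 4, so the share of nuclei and the summed level did not show the same order. None of the 15 was past the fold at both days.

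**Figure D4:**
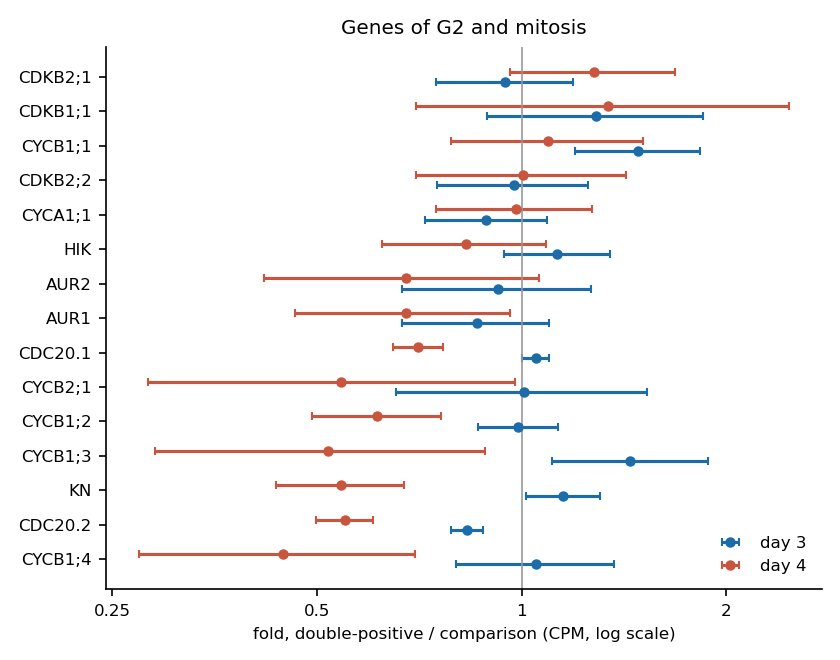
Fold of CPM in double-positive against comparison nuclei (log scale) for the 15 genes of the G2/M list, at day 3 (blue) and day 4 (red), with exact 95% counting intervals as bars. At day 4 the intervals of KN, CDC20.2 and CYCB1;2 lie below 1, and at day 3 the interval of KN lies above it, at 1.02 to 1.30.

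The nuclei nearest to the rule carried AP3 alone, PI alone or all 3 genes, and their levels were read without matching depth. AP1 was higher in AP3-alone nuclei than in double-positive nuclei, at 573 CPM (536 to 612) against 447 CPM (413 to 484) at day 3 and 552 CPM (512 to 594) against 444 CPM (394 to 497) at day 4. It was lower in PI-alone nuclei, at 323 CPM (287 to 362) and 270 CPM (236 to 309), and none of these intervals overlapped with those of double-positive nuclei. REM22 ran otherwise. It was at 49.9 CPM (39.4 to 62.3) and 55.1 CPM (43.0 to 69.5) with AP3 alone, at 94.6 CPM (75.5 to 117) and 84.0 CPM (65.2 to 106) with PI alone and at 106 and 136 CPM with both. ATH1 was alike with AP3 alone, at 95.8 CPM (81.0 to 113) and 94.7 CPM (78.6 to 113), and with both genes, and lower with PI alone, at 46.7 CPM (33.7 to 63.2) and 40.7 CPM (28.0 to 57.2). SEP1, SEP2 and SEP3 were also high with AP3 alone. SEP3 was at 125 CPM (108 to 144) and 105 CPM (87.8 to 124) there. SEP2 was at 155 CPM (136 to 176) and 165 CPM (144 to 189), and SEP1 at 128 CPM (111 to 147) and 160 CPM (139 to 183). Except for SEP3 at day 4, these intervals overlapped with those of double-positive nuclei. With PI alone, SEP3 was at 87.9 and 115 CPM, SEP2 at 93.4 and 93.8 CPM and SEP1 at 105 and 122 CPM. WAT1 stood at 455 and 494 CPM with none, between 262 and 366 CPM with either gene alone, at 179 and 186 CPM with both, and at 157 CPM (129 to 189) and 160 CPM (100.2 to 242) with all 3, where the intervals overlapped with those of double-positive nuclei.

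**Figure D5:**
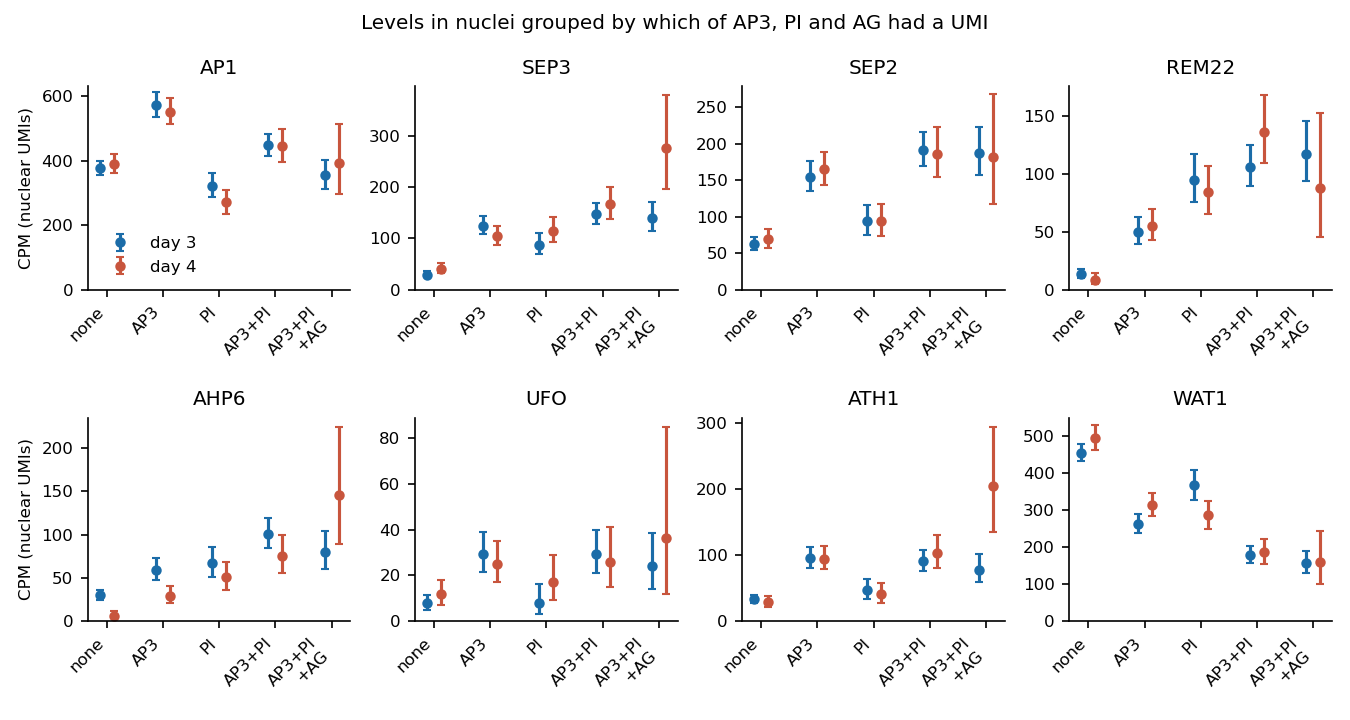
CPM of 8 genes in nuclei with none of AP3, PI and AG (the comparison nuclei), AP3 alone, PI alone, both, or all 3, at day 3 (blue) and day 4 (red); bars are exact Poisson 95% intervals and every axis starts at 0. AP1 is highest with AP3 alone (573 and 552 CPM), and REM22 is lowest with none (13.5 and 8.73 CPM).

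Nuclei with all 3 genes, left out by the rule, differed from the double-positive nuclei in some genes. SUP stood at 36.7 CPM (24.0 to 53.7) with AG and 8.60 CPM (4.44 to 15.0) without it at day 3, intervals that did not overlap, and at 14.5 CPM (1.76 to 52.5) and 15.1 CPM (7.26 to 27.8) at day 4. AP1 was lower with AG at day 3, at 354 CPM (312 to 401), and its intervals overlapped at day 4. ATH1 was higher with AG at day 4, at 204 CPM (135 to 294) against 103 CPM (79.9 to 130), and its intervals overlapped at day 3. These nuclei were deeper at day 3, with a median of 4081 UMIs.

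Within the double-positive nuclei, SEP3 and REM22 did not separate the nuclei at the threshold from the rest. SEP3 was at 126 CPM (89.0 to 174) with exactly 2 UMIs of AP3 and PI, 150 CPM (114 to 194) with 3 or 4 and 153 CPM (126 to 185) with at least 5 at day 3. REM22 was at 95.7 CPM (63.6 to 138), 80.4 CPM (54.6 to 114) and 124 CPM (99.7 to 153). At day 4 the intervals of both genes also overlapped across the 3 classes, with SEP3 at 189, 149 and 176 CPM and REM22 at 126, 126 and 158 CPM. WAT1 at day 3 was higher with exactly 2 UMIs, at 222 CPM (171 to 283), than with at least 5, at 139 CPM (113 to 170), without overlap, while at day 4 these classes stood at 133 and 130 CPM. CYP78A5 at day 3 was lower with exactly 2 UMIs, at 277 CPM (220 to 344), than with at least 5, at 397 CPM (353 to 446), without overlap. At day 4 its levels in these classes were 70.2 CPM (33.7 to 129) and 172 CPM (121 to 237), with overlap, against 59.96 CPM (48.9 to 72.7) in comparison nuclei. The class with at least 5 UMIs was the deepest, with medians of 3393.5 and 2844 UMIs.

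Between the libraries, 10554 genes had at least 50 UMIs over the double-positive nuclei of both days, of which 109 (1.03%) were at least 2-fold higher and 106 (1%) at least 2-fold lower at day 4. Centering the ratios on their median turned this split into 64 higher and 164 lower. The myrosinase genes TGG1 and TGG2 were highest. TGG1 went from 20.06 CPM (13.3 to 29.0) to 171 CPM (141 to 206), and TGG2 from 0 UMIs (upper limit 2.64 CPM) to 90.8 CPM (69.3 to 117). A single nucleus of 8310 UMIs held 61 of the 113 TGG1 UMIs and 40 of the 60 TGG2 UMIs at day 4, and without it the levels there were 79.7 CPM (59.5 to 105) for TGG1 and 30.7 CPM (18.7 to 47.4) for TGG2. In comparison nuclei TGG1 went the other way, from 277 to 127 CPM, with 276 of 885 UMIs at day 3 in a single nucleus. AT2G04050 went from 19.3 to 139 CPM in double-positive and from 24.8 to 141 CPM in comparison nuclei. Single nuclei held 16 of its 27 double-positive UMIs at day 3 and 37 of 92 at day 4, and without the nucleus with most UMIs in each set it went from 7.94 to 83.8 CPM and from 22.3 to 125 CPM. AT2G42065, AT5G09570 and AT5G54100 were 5.15-fold, 4.93-fold and 4.10-fold higher in double-positive nuclei, with log2 ratios of 2.08, 1.91 and 1.84 there and 1.33, 0.81 and 1.22 in comparison nuclei.

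AOX1A, the alternative oxidase of mitochondria, went from 155 to 339 CPM in double-positive nuclei, 2.18-fold (1.80 to 2.64), and UGT74E2 from 19.3 to 65.1 CPM. These were 2 of the 3 tested genes of mitochondrial retrograde signaling. AT2G04050 and AT5G09570, among the genes most raised at day 4, were also planned for this list. They were dropped from it because their names did not match the gene table. The list median was 1.08 in double-positive and 1.27 in comparison nuclei. The genes most reduced at day 4 were BRU6, RHL41, MBP2, AT4G29030, LTP6 and PRF1. LTP6, a lipid transfer protein gene, went from 2043 CPM (1969 to 2120) to 689 CPM (627 to 755) in double-positive nuclei and from 760 to 408 CPM in comparison nuclei. BRU6, which encodes an auxin-conjugating enzyme, went from 50.9 CPM (39.7 to 64.2) to 4.54 CPM (0.937 to 13.3), and in comparison nuclei from 49.5 to 29.1 CPM. RHL41, a zinc-finger gene of stress responses, went from 127 to 27.2 CPM, but 126 of its 177 UMIs at day 3 lay in a single nucleus, without which the day 3 level was 36.7 CPM (27.3 to 48.3). LFY stood at 142 CPM (123 to 163) and 71.1 CPM (52.3 to 94.6), 0.50 of the day 3 level, and went from 80.9 to 57.1 CPM in comparison nuclei. In double-positive nuclei SEP3, SEP2 and ATH1 stood at 0.97 to 1.13 times their own day 3 level.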

How the data were processed

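Per the file headers and the study's methods, the authors counted UMIs with Cell Ranger 3.1.0 and the Araport11 annotation and deposited raw counts per gene and barcode, with the filtered barcodes of day 4 and all barcodes of day 3. The deposited barcode and gene lists carry no other values. The genome sequence, use of strand, correction for free RNA and doublet removal are not given in the sources used here. Barcodes with at least 1000 nuclear genes were kept (4397 and 4545; the study states other numbers after its own filter), genes with mitochondrial or plastid identifiers were left out, and no doublet caller was run. Kept nuclei held 11083512 nuclear UMIs at day 3 and 10202530 at day 4.

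UMIs were summed over the nuclei of a set and given as CPM with exact Poisson 95% intervals; shares have Clopper-Pearson and folds exact conditional binomial intervals. Log2 ratios used CPM plus 10. With 1 library per day there was no test between samples. Nuclei were matched without replacement, deepest first. The text names the 12 highest and 12 lowest genes by the library nearer 0, the 6 highest and 6 lowest by day, and list genes. Of 152 listed genes, 148 matched the RefSeq gene table (TAIR10.1) in 13 lists, and 36632 of 36917 identifiers had an entry there. Members and lists were chosen with earlier results of these data known. Alternatives were other minima of genes or UMIs, a stricter rule, leaving out deep nuclei, thinning, other comparison nuclei, pseudocounts and scaling. Levels without the nucleus holding most UMIs of a gene, and the epidermal sum without PDF1, were added after seeing the data. The ratio code was tested on simulated data. Python 3.11.15, numpy 2.4.6, scipy 1.17.1 and pandas 2.3.3 were used.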

Additional observations from a re-analysis of the deposited data

Results flagged for a closer look

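Only the listed and top-ranked genes that passed the filter were scanned here, so the count is not one over all tested genes. In 5 of those scanned, the fold between double-positive and comparison nuclei lay on opposite sides of 1 at day 3 and day 4. Their counting intervals excluded 1 at each day. The difference between the libraries was not tested, since each day had 1 library. TGG1 had a log2 ratio of -3.26 at day 3 and 0.40 at day 4. TGG2 had -2.33, with 0 UMIs in double-positive nuclei so that the value depends on the pseudocount, and 1.13. The day 4 values of both rest on a nucleus of 8310 UMIs, which held 61 of 113 and 40 of 60 UMIs. In comparison nuclei at day 4, a nucleus of 5635 UMIs held 53 of the 62 TGG2 UMIs. Without the nucleus with most UMIs of the gene in each set, TGG1 at day 4 stood at 79.7 against 98.7 CPM, now lower in double-positive nuclei but with overlapping intervals, and TGG2 at 30.7 against 5.26 CPM. CYCB1;3 had 0.45 and -0.74, KN 0.20 and -0.84, and CDC20.1 0.067 and -0.50. These last 3 act in mitosis and cytokinesis and come from the G2/M list of 15 genes. At day 4 KN had 104 of the 660614 UMIs of double-positive nuclei and 498 of the 1717761 UMIs of comparison nuclei.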

How the results depend on the processing

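The share of double-positive nuclei moved at day 3 and day 4 with these alternatives, to 5.31% and 3.49% with a minimum of 500 genes, 13.0% and 6.46% with 1500, 6.28% and 3.32% with at least 3 UMIs of AP3 and PI, 6.96% and 3.91% without nuclei above 2 times the median UMI total, and 3.12% and 1.78% at 1000 UMIs. It was larger at day 3 each time. The count of higher genes was 98 with a pseudocount of 1 CPM, 102 with no minimum beyond 1 UMI, 34 with at least 100 UMIs and 19 of 1146 genes tested after thinning, 5 of them among the 60. The count of lower genes was 467 with no minimum, 158 with 1 comparison nucleus and 56 after thinning, 19 of them among the 311. Without the deep nuclei, 81 genes were higher, 38 of them also among the 60. With each nucleus weighted equally, an alternative chosen after seeing the data, 79 were higher, 53 of them among the 60. Between days, the pseudocount of 1 CPM gave 286 higher and 230 lower, centering on the median 64 and 164, at least 100 UMIs 53 higher, leaving out deep nuclei 66 higher, and the stricter rule 171 lower.

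Of 262 list medians computed under 12 alternatives, 253 stayed within the list's rank interval. This count is a weak check, since the lists are short and their intervals wide. For the 6 auxin and cytokinin genes at day 3 the interval ran from -0.57 to 1.48. Some alternatives, such as the pseudocount, also reused the same nuclei and counts. After thinning, meristem and boundary genes had -1.10 and -0.94, epidermis -0.81 at day 4, vascular -1.81 and G2/M 0.44 at day 3. Only list genes among the 1146 tested after thinning enter these medians. Their number per list is not given and can be small, so the values need not stand for the whole list. Without deep nuclei, epidermis had -0.47 and G2/M -0.79 at day 4 and S phase -0.17 at day 3. With comparison nuclei of any depth, S phase had -0.074 at day 4. No called gene that the text names reversed. LTP6, AGL24, ROXY1, KNAT1, ATHB8, ACL5 and SMXL4 fell short of the fold in at least 1 alternative, and after thinning only 4 named genes could be read. In lists with fewer than 6 tested genes (carpel and retrograde genes) no median was compared. No paired analysis was possible because each day had 1 library, and no fit of sets of nuclei over both libraries was run. Depth limits low genes such as UFO, SUP and RBE.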

Other observations

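The values of 5 more of the 60 genes higher at both days, on no list and chosen after their values were seen, are given singly. ERL2, a receptor kinase gene of the ERECTA family, stood at 402 CPM in double-positive and 190.6 CPM in comparison nuclei at day 3 and at 376.9 and 190.4 CPM at day 4. ERL1, of the same family, stood at 287 and 155 CPM and at 341 and 183 CPM. EMS1, a receptor kinase gene known from anthers, stood at 47.3 and 19.8 CPM and at 46.9 and 18.6 CPM. MYB17 stood at 143 and 75.5 CPM and at 177 and 75.7 CPM. CYCD3;3, a cyclin gene, had log2 ratios of 0.64 and 0.63.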
